A study of Mus musculus with 8 samples.

Results

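The claudins and occludin were described here through 10 genes chosen by name: Cldn1, Cldn2, Cldn3, Cldn4, Cldn6, Cldn7, Cldn8, Cldn10, Cldn23 and Ocln. All 10 had a probe among the 31709 gene names of the array, with 13 of its 39429 probes. The files carry 9 of the names as such, and the probe of Cldn10 is listed under the name Cldn10a. RNA came from 8 spontaneous tumours of the ovary, each from a female mouse of the strain C57BL/6JTgMISIIR-TAg, a C57BL/6J background in which the promoter of the Muellerian inhibiting substance type II receptor (Amhr2) drives SV40 large T antigen. All 8 mice carried the transgene and none had received a drug, and the comparison is of 4 Nedd9-null mice with 4 Nedd9-WT mice. The product of Nedd9 is a docking protein that acts in focal adhesion signalling. The labels give no age, and they place tumour mass both below and at 2000 mm3.

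Claudins are membrane proteins whose extracellular loops pair between neighbouring epithelial cells and build the strands of the tight junction. Some claudins, such as CLDN1, CLDN3 and CLDN4, are known mainly for sealing the space between cells, while CLDN2 and CLDN10 form pores for ions. Occludin is a MARVEL domain protein of the same strands that regulates the barrier. CLDN3, CLDN4 and CLDN7 are well known for their high levels in human ovarian carcinomas of epithelial type.

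A level here is the log2 processed signal of a probe less the log2 75th percentile of its array. A level of 0 is thus as bright as that percentile, and levels of different probes cannot be ranked against each other. Differences are Nedd9-null minus Nedd9-WT on the log2 scale with their standard error (SE) from limma, fitted over all 25536 genes tested, and means are given ± SD with n = 4 mice. "Well above background" is the scanner software's own flag. The probe of a gene had to carry it on 3 or more of a genotype's 4 arrays to be tested, and 11 of the 13 probes and 9 of the 10 genes did.

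The arrays were checked first. Nedd9 was lower in every Nedd9-null tumour (-4.03 to -2.01) than in any Nedd9-WT tumour (0.84 to 1.85), with a limma adjusted p of 0.0281. The Nedd9-null arrays were not alike: Nedd9-null replicate 1 correlated with the other 3 at 0.886 to 0.920 and with the Nedd9-WT arrays at 0.938 to 0.973, over all genes tested. Its array also had the lowest 75th percentile in signal (2418, against 2866 to 3552) and the most outlier spots (292, against 194 to 243). Its share of probes well above background was the largest (84.6%, against 73.0% to 83.0%). Whether these measures bear on its profile was not tested. The gene whose promoter drives the transgene, Amhr2, was at 6.11 to 7.04 in Nedd9-WT tumours and 6.46 in Nedd9-null replicate 1, but at 0.29 to 2.18 in Nedd9-null replicates 2 to 4. The results below are therefore given over all 8 arrays and, for the tests, also with Nedd9-null replicate 1 left out, the value that follows "then" where 2 are given in a row. That tumour was left out because of its levels in these same data. An adjusted p without it is therefore descriptive, and its nominal error rate does not hold. Each genotype may also lie on its own slide, and slide could then not be told apart from genotype.

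Of the 9 tested genes, 8 had a higher mean in Nedd9-null tumours and Ocln had a lower one, where 52.2% of all genes tested were higher and 47.8% lower. None passed a limma adjusted p of 0.05 in the fit of all 8 arrays, at which 0.0666% of all genes passed (0.0587% as higher and 0.00783% as lower). At an unadjusted p of 0.05, 6 of the 9 were higher and 0 were lower, against 13.1% and 10.8% of all genes tested. The median difference of the 9 genes was 1.79, beside 0.03 over all genes tested. Without Nedd9-null replicate 1, Cldn1, Cldn2, Cldn3, Cldn7, Cldn8 and Cldn23 rose past an adjusted p of 0.05, 6 of 9 genes, where 10.3% of all genes passed as higher and 8.36% as lower. The median of the 9 was then 2.74, beside -0.07 over all genes. Cldn8 and Cldn2 passed the background filter only through the Nedd9-null tumours (0 and 1 of 4 Nedd9-WT arrays well above background). They could hardly have been counted as lower, so their place among the higher genes follows in part from the filter. In these bulk samples, a change in the number of cells of a type and a change in RNA per cell cannot be told apart.

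**Figure D1:**
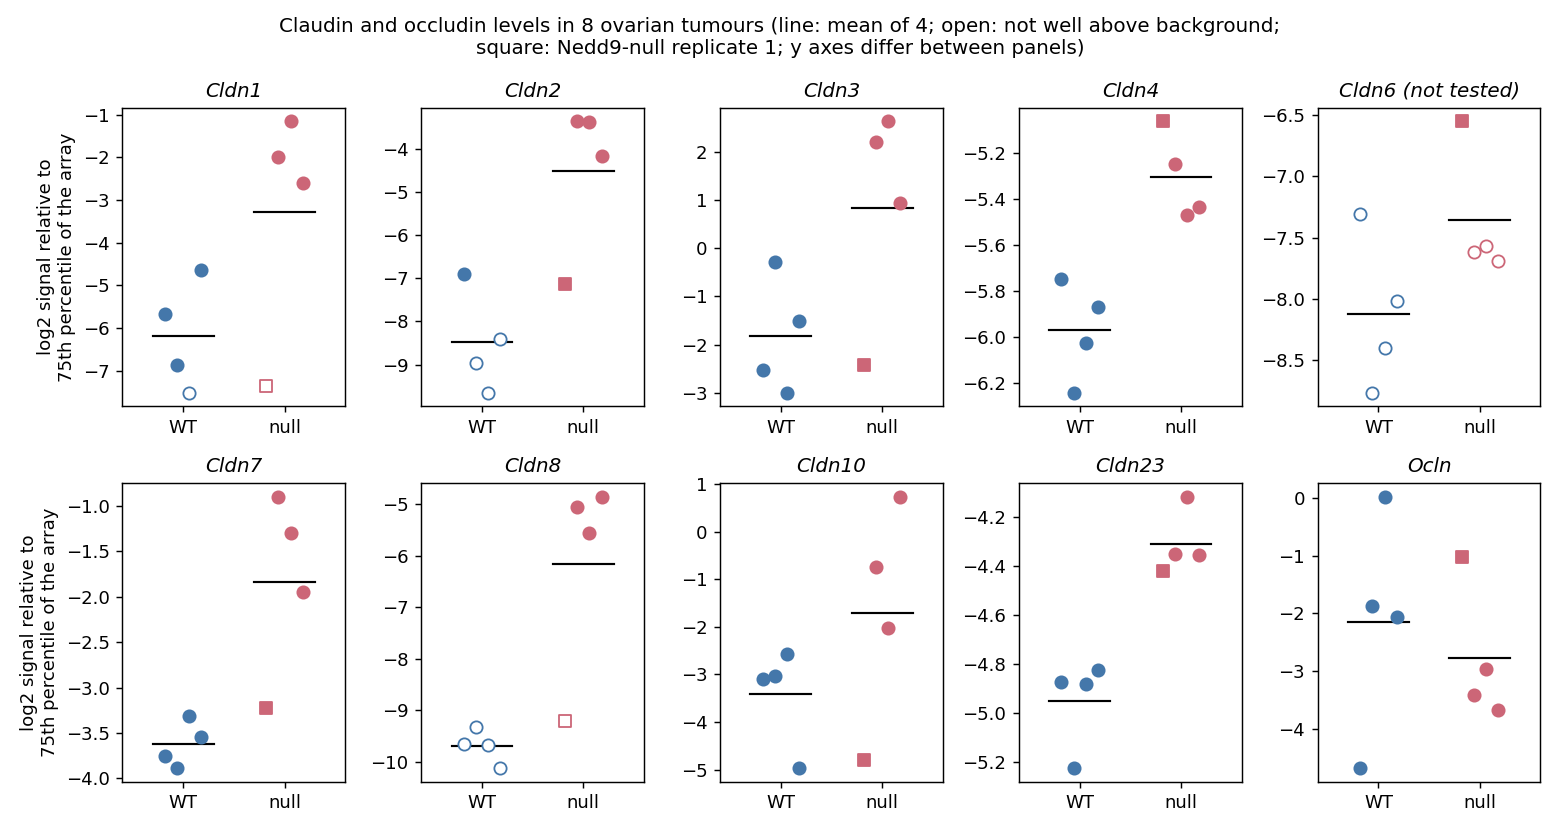
Level of each of the 10 genes in the 8 tumours, as log2 signal relative to the 75th percentile of the array, by genotype, with the mean of 4 tumours as a line and open symbols where the probe was not well above background. Nedd9-null replicate 1, the square, lies among the Nedd9-WT tumours for Cldn1, Cldn2, Cldn3, Cldn10 and Ocln.

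Of the barrier claudins, Cldn3 is described first. Its level was -2.53, -0.29, -3.00 and -1.50 in Nedd9-WT replicates 1 to 4 and -2.42, 2.20, 2.63 and 0.94 in Nedd9-null replicates 1 to 4. The last 3 tumours lay above every Nedd9-WT tumour, and Nedd9-null replicate 1 lay within the Nedd9-WT range. In processed signal, Cldn3 read 367 to 2600 in Nedd9-WT tumours, 451 in Nedd9-null replicate 1 and 6798 to 20108 in the others. The difference was 2.67 (SE 1.14), or 6.35-fold, with a limma adjusted p of 0.205. Without Nedd9-null replicate 1 it was 3.75 (SE 0.71), or 13.5-fold, with a limma adjusted p of 0.0119.

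Cldn4 lies beside Cldn3 on chromosome 5, with the tested probes 41.1 kb apart (mm9), and moved far less. Its level was -5.75, -6.24, -6.02 and -5.87 in Nedd9-WT and -5.06, -5.25, -5.47 and -5.43 in Nedd9-null tumours. Here the genotypes did not overlap, and Nedd9-null replicate 1 was the highest of all 8. In processed signal, however, it read 72.4 in that tumour and 73.2 to 90.7 in the other Nedd9-null tumours. Its rank thus rests on the scale, as the 75th percentile of that array, 2418, was the lowest. The difference was 0.67 (SE 0.17), or 1.59-fold, with a limma adjusted p of 0.0991, and 0.59 (SE 0.17) with an adjusted p of 0.0579 without Nedd9-null replicate 1. It was 0.39 with quantile normalization, 0.31 with normexp background correction and 0.27 with the authors' value table. Cldn13, the next claudin gene on the other side of Cldn4 (31.4 kb between probes), differed by 0.50 (SE 0.46; 0.25 with Nedd9-null replicate 1 left out), was well above background in 2 of 4 Nedd9-WT tumours, and had overlapping genotypes; it was named for its position after its value was seen.

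The upstream sequences of Cldn3 and Cldn4 are shown because the fitted differences of these neighbours were unlike. That of Ocln is shown because its fitted difference was negative (-0.62, with overlapping genotypes). The contrast of Cldn3 with Cldn4 was not tested, nor was any link of a motif to a level. Each is the 250 bases before the transcription start from RefSeq (GRCm38.p6), 5′ to 3′ on the strand of the gene, with capitals for whole matches to the GC box GGGCGG or the E-box CAGGTG, which ZEB and SNAI repressors bind, on either strand. They are chr5:134985964-134986213 (plus strand), chr5:134946935-134947184 (minus strand) and chr13:100552719-100552968 (minus strand).
Cldn3: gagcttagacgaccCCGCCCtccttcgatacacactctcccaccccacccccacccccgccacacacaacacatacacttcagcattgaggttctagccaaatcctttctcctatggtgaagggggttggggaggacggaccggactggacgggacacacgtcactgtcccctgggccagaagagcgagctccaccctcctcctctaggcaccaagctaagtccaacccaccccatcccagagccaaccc
Cldn4: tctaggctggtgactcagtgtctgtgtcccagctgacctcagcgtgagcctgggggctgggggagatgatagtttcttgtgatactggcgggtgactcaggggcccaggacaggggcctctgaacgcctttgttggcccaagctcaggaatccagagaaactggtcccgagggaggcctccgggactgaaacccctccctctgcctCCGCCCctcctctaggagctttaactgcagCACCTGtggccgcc
Ocln: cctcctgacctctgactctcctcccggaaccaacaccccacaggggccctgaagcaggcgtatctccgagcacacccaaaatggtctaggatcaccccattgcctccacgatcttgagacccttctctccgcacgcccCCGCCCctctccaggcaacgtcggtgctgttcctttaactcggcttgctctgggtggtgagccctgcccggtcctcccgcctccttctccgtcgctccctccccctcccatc

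The table of promoters held windows for 8 of the 10 genes, in 11 windows of 250 bases before to 50 after a start. The E-box was in 6 of the 11 windows, from Cldn3, Cldn4, Cldn6, Cldn7 and Ocln, and in 20.2% of all 32851 windows. The GC box was in 8 of the 11 and in 35.7% of all windows. The site of the Grainyhead-like factors, AACCNGTT, was in 0 of the 11 and in 2.09% of all windows. The E-box of Cldn3 and that of the printed Ocln window lie after the start site and so outside the stretches printed. No motif overlapped another in these stretches.

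Cldn7, a claudin of the lateral membrane that binds EPCAM, was at -3.76, -3.89, -3.31 and -3.55 in Nedd9-WT tumours. In Nedd9-null tumours it was -3.22, -0.90, -1.30 and -1.94. The genotypes did not overlap, although Nedd9-null replicate 1 stood only just above the highest Nedd9-WT tumour. In processed signal it read 260, below the 295 of Nedd9-WT replicate 3, so this order rests on the scale. The difference was 1.79 (SE 0.47), or 3.45-fold, with a limma adjusted p of 0.101, and 2.25 (SE 0.28), or 4.74-fold, with an adjusted p of 0.00227 without Nedd9-null replicate 1.

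Cldn1, the main sealing claudin of the epidermis, was at -5.66, -6.88, -7.51 and -4.65 in Nedd9-WT tumours and at -7.36, -1.99, -1.15 and -2.59 in Nedd9-null tumours. The first of the Nedd9-null tumours fell inside the Nedd9-WT values and, like Nedd9-WT replicate 3, was not well above background. The difference was 2.90 (SE 1.35) with a limma adjusted p of 0.237, and 4.26 (SE 0.71), or 19.2-fold, with an adjusted p of 0.00721 without that tumour. Over all 8 arrays it was 2.06 with normexp background correction, so its size rests in part on readings at or near background.

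Cldn8, known from the distal nephron, was not well above background in any Nedd9-WT tumour or in Nedd9-null replicate 1. In Nedd9-null replicates 2 to 4 its level was -5.05, -5.55 and -4.85, with processed signals of 104, 68.9 and 123. The fitted difference was 3.53 (SE 0.92, limma adjusted p = 0.0977), from measured means of -6.17 ± 2.06 (Nedd9-null) and -9.70 ± 0.33 (Nedd9-WT). Leaving out Nedd9-null replicate 1 gave 4.54 (SE 0.25, limma adjusted p = 0.000293). For a second estimate, each Nedd9-WT reading was replaced by the lowest signal that counted as above background on its array. Against these, the Nedd9-null mean was 2.53-fold higher with all 8 arrays and 5.13-fold higher without Nedd9-null replicate 1. The 2.53-fold value is not a lower bound, because it includes Nedd9-null replicate 1 at its background reading. Over all 8 arrays the fitted difference became 1.07 with normexp background correction and 1.498 with the authors' value table. Its size is thus not fixed by these data. All Nedd9-null readings lay above all Nedd9-WT readings, but the order of Nedd9-null replicate 1 among them rests on readings at background. On chromosome 16 the neighbouring Cldn17 (55.0 kb between probes; named for its position after its value was seen) differed by -0.01 (SE 0.31; -0.22 with Nedd9-null replicate 1 left out).

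**Figure D2:**
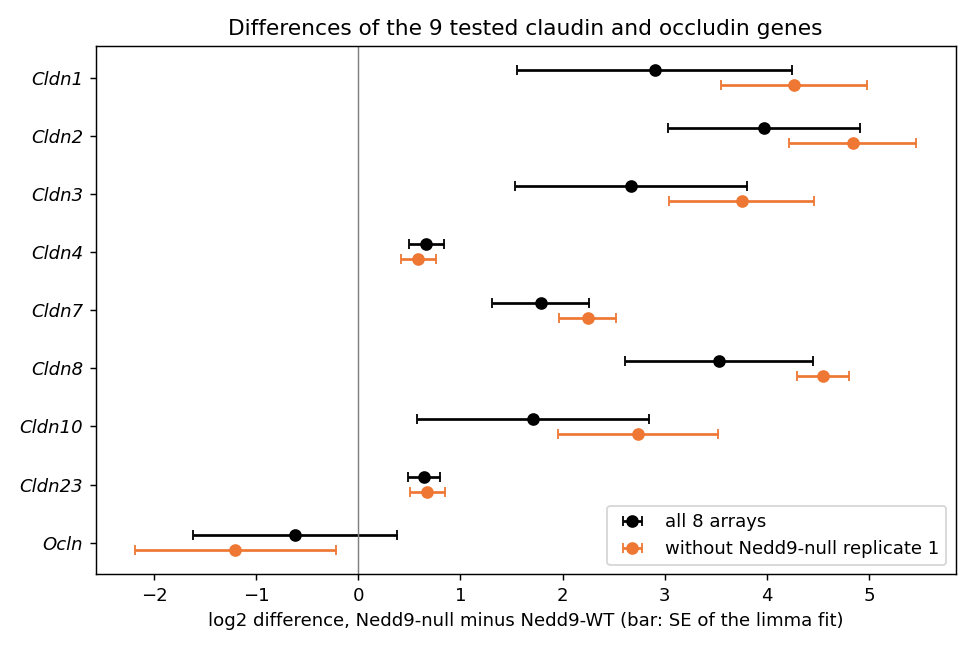
Log2 difference (Nedd9-null minus Nedd9-WT) of each tested gene with the SE of the limma fit, over all 8 arrays and without Nedd9-null replicate 1. Leaving out that tumour moved Cldn1, Cldn2, Cldn3, Cldn7, Cldn8 and Cldn10 upward, moved Ocln downward and changed Cldn4 and Cldn23 little, at 0.59 and 0.68.

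The pore-forming claudins were measured next. Cldn2, which forms channels for small cations and water, has a pair of probes. The brighter was at -6.90, -8.97, -9.65 and -8.40 in Nedd9-WT tumours, of which only replicate 1 was well above background, and at -7.13, -3.37, -3.39 and -4.16 in Nedd9-null tumours. Its Nedd9-null replicates 2 to 4 lay above all Nedd9-WT tumours. The difference was 3.97 (SE 0.94) with a limma adjusted p of 0.0917, and 4.84 (SE 0.63) with an adjusted p of 0.00258 without Nedd9-null replicate 1. It was 1.59 with normexp background correction and 1.84 with the authors' value table. Since 3 of the 4 Nedd9-WT readings were at background, the size of the difference is not fixed by these data. The other Cldn2 probe, well above background on 4 of 8 arrays, differed by 1.91 (SE 0.77, limma adjusted p over probes = 0.181). With Nedd9-null replicate 1 left out it differed by 2.37 (SE 0.75, adjusted p = 0.0685), so that the call of Cldn2 rests on the brighter probe. Its Nedd9-WT replicate 3 (-6.56) lay level with the Nedd9-null tumours (-8.20 to -6.14).

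Cldn10 encodes ion channels of opposite selectivity through alternative first exons. The files list its single probe as Cldn10a, and which of these isoforms the probe reads was not examined. Its level was -3.10, -3.04, -2.56 and -4.96 in Nedd9-WT and -4.80, -0.74, -2.02 and 0.73 in Nedd9-null tumours. Nedd9-null replicate 4 was the highest and Nedd9-null replicate 1 the second lowest of all 8. The difference was 1.71 (SE 1.13) with a limma adjusted p of 0.399. It was 2.74 (SE 0.78, adjusted p = 0.0521) without Nedd9-null replicate 1 and 0.90 without Nedd9-null replicate 4.

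Cldn23 moved little but evenly. It was at -4.87, -5.22, -4.88 and -4.82 in Nedd9-WT and at -4.42, -4.35, -4.12 and -4.35 in Nedd9-null tumours, with no overlap. The difference was 0.64 (SE 0.16), or 1.56-fold, with a limma adjusted p of 0.0939, and 0.68 (SE 0.17) with an adjusted p of 0.0318 without Nedd9-null replicate 1. It was 0.37 with quantile normalization and 0.27 with the authors' value table. Cldn6, a claudin of embryonic epithelium, was well above background only in Nedd9-null replicate 1 (-6.55) and was not tested; its readings were -8.76 to -7.30 in Nedd9-WT and -7.69 to -6.55 in Nedd9-null tumours. The values of the genotypes lay apart, higher in Nedd9-null, in 4 of the 9 tested genes (Cldn4, Cldn7, Cldn8 and Cldn23) and in 7.16% of all genes tested. They lay apart in the lower direction in 0 of the 9 and in 5.58% of all genes. Of the 4, Cldn8 passed the background filter only through the Nedd9-null tumours.

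Ocln did not follow the claudins. The brighter of its probes was at -4.68, -1.87, 0.02 and -2.06 in Nedd9-WT and at -1.02, -3.41, -2.96 and -3.67 in Nedd9-null tumours. The genotypes overlapped: Nedd9-WT replicate 1 was the lowest of all 8, and Nedd9-null replicate 1 was the second highest. The difference was -0.62 (SE 1.00, 95% confidence interval -2.94 to 1.70) with a limma adjusted p of 0.749. Leaving out Nedd9-null replicate 1 gave -1.20 (SE 0.98, limma adjusted p = 0.453), leaving out Nedd9-WT replicate 1 gave -1.46, and leaving out Nedd9-WT replicate 3 gave 0.10. In Nedd9-null replicates 2 to 4, Ocln lay above Nedd9-WT replicate 1 and below the other Nedd9-WT tumours, while each of the 8 tested claudins, by its brighter probe, lay above all 4 Nedd9-WT tumours.

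**Figure D3:**
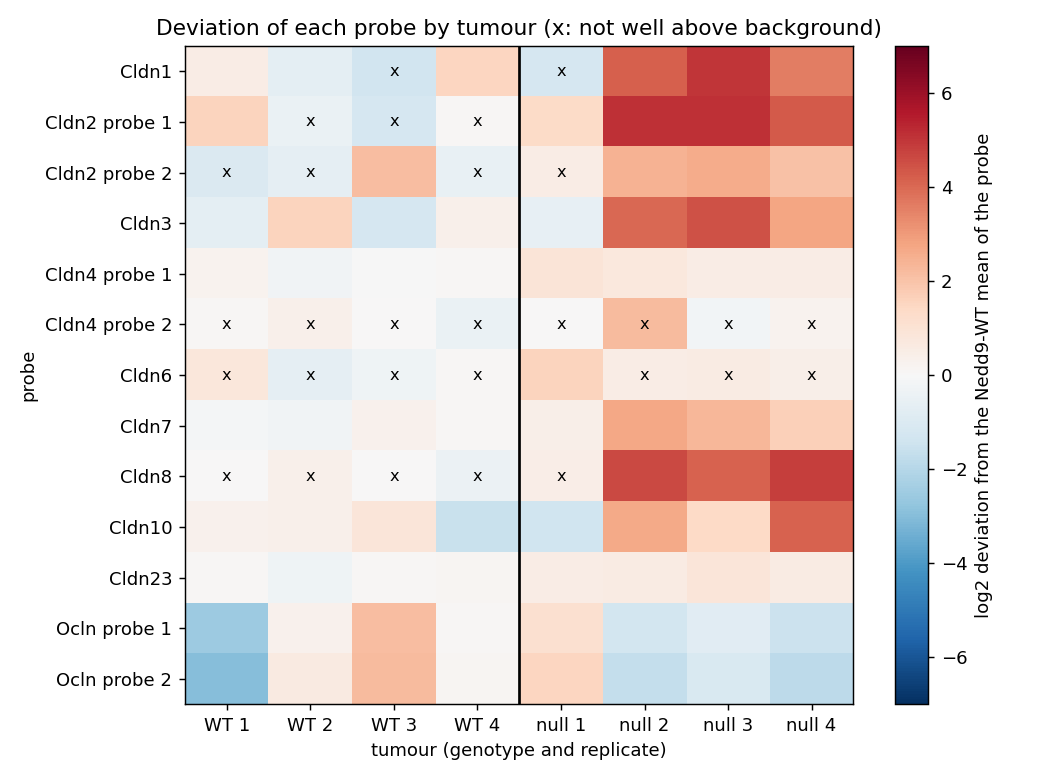
Log2 deviation of each of the 13 probes from its own Nedd9-WT mean (colour) in each tumour (columns), with a cross where the probe was not well above background. Nedd9-null replicates 2 to 4 are red for most claudins and blue for both Ocln probes, and Nedd9-null replicate 1 resembles the Nedd9-WT columns in most rows.

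The 3 genes with a pair of probes show how far a level rests on its probe, and the first 30 of the 60 bases of each are given, 5′ to 3′ from the spot files, brighter probe first, with no part marked. The Ocln probes lie at chr13:101268529-101268588 and chr13:101267384-101267443, the Cldn4 probes at chr5:135422135-135422194 and chr5:135421347-135421406, and the Cldn2 probes at chrX:136345244-136345303 and chrX:136343889-136343948 (mm9; Ocln and Cldn4 on the minus strand). Exon and UTR positions were not assigned.
Ocln probe 1: aaatggcttttgataattgactgggctgaa
Ocln probe 2: cccaatttggtctgttttagctgaaaatgt
Cldn4 probe 1: acaacgtcatccgcgacttctacaacccta
Cldn4 probe 2: accctactaatgaatttctgtagagtggat
Cldn2 probe 1: agtgtggaacatctgtgaccaaggtgttgt
Cldn2 probe 2: cccaaagccaagagtgagttcaactcatac
The second Ocln probe read -6.88, -3.32, -1.72 and -3.76 in Nedd9-WT and -2.40, -5.60, -4.96 and -5.73 in Nedd9-null tumours, with the same lowest and the same highest tumour as the first, and differed by -0.76 (SE 1.17), or -1.52 (SE 1.10) with Nedd9-null replicate 1 left out. The second Cldn4 probe was not well above background on any of the 8 arrays.

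Likeness of pattern was measured as the root mean square difference of the log2 levels over the 8 arrays, after each gene was centred on its own mean. Among genes outside the group, those nearest to Cldn7 were Marveld3, which encodes another MARVEL protein of the tight junction (0.24), and Krt81, a keratin gene (0.25). Those nearest to Cldn4 were Esd (0.08), an esterase gene, and the pseudogene Tpt1p (0.08). Cldn3 had Lynx1 (0.53) and Coch (0.59) as its nearest genes, and Ocln had Hsd11b1 (0.64), a steroid dehydrogenase gene, and Nr4a1 (0.66), a nuclear receptor gene. Among the 9 genes, Cldn4 and Cldn23 were the most alike (0.20) and Cldn2 and Ocln the least (3.47).

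The other claudins on the array moved in both directions. Of 21 genes listed, 20 were on the array and 14 were tested, with 0 past an adjusted p of 0.05 and a median difference of 0.09. Without Nedd9-null replicate 1, 3 of the 14 rose and 1 fell, where 10.3% of all genes tested rose and 8.36% fell. The 3 were Cldn22, Cldn9 and Cldn15, and the 1 was Cldn11. Cldn22 was at -8.53 to -4.22 in Nedd9-WT tumours and at -4.02, 0.75, 1.76 and 1.92 in Nedd9-null tumours, and differed by 6.84 (SE 1.47, limma adjusted p = 0.0836), or 8.22 (adjusted p = 0.00193) with Nedd9-null replicate 1 left out. It was not well above background in Nedd9-WT replicates 3 and 4, so the size of its difference rests in part on readings at background. Cldn9, whose probe lies 1.14 kb from that of Cldn6 on chromosome 17, differed by 1.67 (SE 0.44, limma adjusted p = 0.100) with no overlap, and by 2.08 (adjusted p = 0.00302) when that tumour was left out. Cldn15, the sodium pore of the intestine, differed by 2.41 (SE 0.75, limma adjusted p = 0.123) and then by 3.16 (adjusted p = 0.00269). Cldn11, the claudin of the blood-testis barrier and of myelin, was at 3.43 to 4.70 in Nedd9-WT tumours, 4.02 in Nedd9-null replicate 1 and 0.16 to 1.09 in Nedd9-null replicates 2 to 4. Its difference was -2.43 (SE 0.82, limma adjusted p = 0.137), and -3.29 (adjusted p = 0.00150) without Nedd9-null replicate 1. Cldnd1, a gene of a claudin domain protein, differed by -0.42 (SE 0.22, limma adjusted p = 0.287), then by -0.54 (adjusted p = 0.125).

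Of 12 other membrane proteins of the tight junction, 0 passed in the fit of all arrays, and their median difference was 0.46. Without Nedd9-null replicate 1, 5 of the 12 rose and 2 fell, where 10.3% of all genes tested rose and 8.36% fell. Ildr1, an angulin gene of tricellular contacts, was at -9.02 to -7.14 in Nedd9-WT and -5.48 to -4.34 in Nedd9-null tumours, replicate 1 (-5.27) included. Its difference was 3.12 (SE 0.49, limma adjusted p = 0.0601), or 3.24 (adjusted p = 0.00734) with that tumour left out. Nedd9-WT replicates 2 and 3 were not well above background, which leaves the size of this difference uncertain. Lsr, another angulin gene, differed by -1.45 (SE 0.41, limma adjusted p = 0.107), then by -1.82 (adjusted p = 0.00417). Jam3, a junctional adhesion molecule gene, was at 0.05 to 0.89 in Nedd9-WT tumours, 0.29 in Nedd9-null replicate 1 and 4.24 to 4.78 in the others; it differed by 3.00 (SE 0.97, limma adjusted p = 0.129), then by 4.08 (adjusted p = 0.000296). Marveld3 differed by 1.39 (SE 0.45, limma adjusted p = 0.128), then by 1.83 (adjusted p = 0.00294).

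Genes of the cytoplasmic plaque mostly stayed near 0. Of 24 tested, 0 passed, the median difference was 0.12, and 3 rose and 1 fell without Nedd9-null replicate 1. These counts are near the shares of all genes tested in that fit, 10.3% higher and 8.36% lower. The 3 were Patj, Prkcz and Tjp3, and the 1 was Cgn. Patj, a polarity scaffold gene, differed by 1.18 (SE 0.27, limma adjusted p = 0.0884) and the polarity kinase gene Prkcz by 2.92 (SE 0.69, adjusted p = 0.0916), both with no overlap; with Nedd9-null replicate 1 left out they differed by 1.25 and 3.62. The cingulin gene Cgn differed by -1.74 (SE 0.58, adjusted p = 0.136) and the polarity gene Pard6b by -1.18 (SE 0.42, adjusted p = 0.147), then by -2.17 and -1.43. Of the genes of the claudin-binding ZO scaffolds, 2 are given here, named after their values were seen. Tjp1 (ZO-1) was at 2.24 to 2.75 in Nedd9-WT and 2.28 to 2.49 in Nedd9-null tumours. Tjp3 (ZO-3) was at -4.09 to -2.498 in Nedd9-WT tumours, -4.13 in Nedd9-null replicate 1 and 0.45 to 0.84 in the others. Tjp3 differed by 2.72 (SE 1.11, limma adjusted p = 0.188), then by 3.93 (adjusted p = 0.000801).

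**Figure D4:**
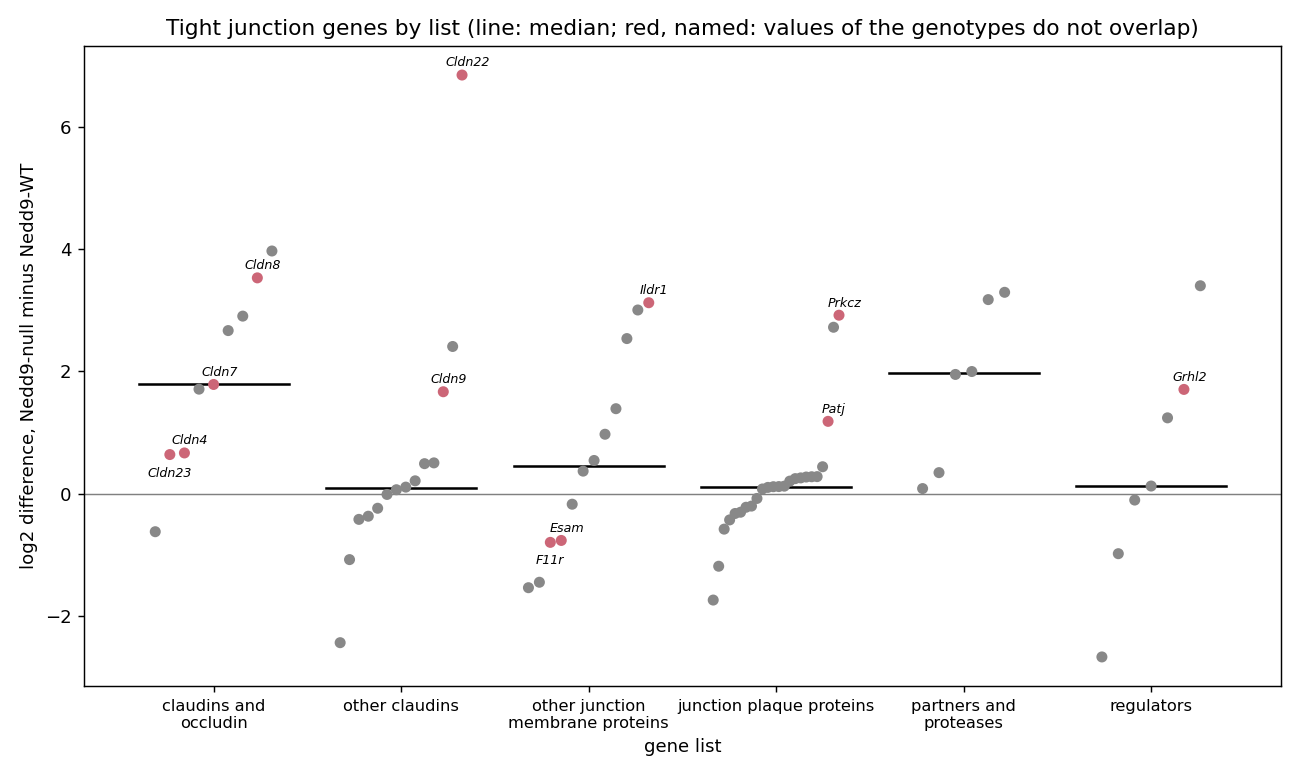
Log2 difference (Nedd9-null minus Nedd9-WT, all 8 arrays) of each tested tight junction gene by list, with the list's median as a line and genes whose genotypes do not overlap in red and named. The medians are 1.79 for the claudins and occludin described here, 0.09 for other claudins, 0.46 for other membrane proteins, 0.12 for plaque proteins, 1.97 for claudin partners and proteases and 0.13 for regulators.

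The partners and membrane proteases that act on claudins had a median difference of 1.97 over 6 genes, all with a positive difference, of which 0 passed over all arrays and 4 rose without Nedd9-null replicate 1. Of all genes tested, 52.2% had a positive difference and 10.3% rose without that tumour. The prostasin gene Prss8 differed by 3.29 (SE 0.94, limma adjusted p = 0.109), the matriptase gene St14 by 2.00 (SE 0.83, adjusted p = 0.195) and its inhibitor gene Spint1 by 1.95 (SE 1.14, adjusted p = 0.337). With Nedd9-null replicate 1 left out, Prss8 differed by 4.32 (limma adjusted p = 0.000327), St14 by 2.75 (adjusted p = 0.0162) and Spint1 by 3.11 (adjusted p = 0.0127). Epcam, the partner of CLDN7, differed by 0.35 (SE 0.96), or 1.29 with that tumour left out, and had its lowest level of all 8 in Nedd9-null replicate 1 (-6.40); it was named after its value was seen.

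Among 7 transcription factors known to regulate claudin and occludin genes, 0 passed, the median difference was 0.13, and 3 rose and 1 fell without Nedd9-null replicate 1. In that fit 10.3% of all genes tested rose and 8.36% fell. Grhl2, an activator of Cldn4, was at -5.82 to -4.55 in Nedd9-WT and -4.09 to -3.15 in Nedd9-null tumours, with Nedd9-null replicate 1 the highest of all 8. Its difference was 1.70 (SE 0.32, limma adjusted p = 0.0756), or 1.59 (adjusted p = 0.0198) with that tumour left out. The epithelial factor gene Elf3 differed by 3.40 (SE 1.05, limma adjusted p = 0.122), then by 4.47 (adjusted p = 0.00206). The repressor genes Zeb2 and Snai1 differed by -2.67 (SE 0.80) and -0.98 (SE 0.29), with limma adjusted p of 0.115 and 0.113, then by -3.52 (adjusted p = 0.000845) and -0.99 (adjusted p = 0.0788). The repressor genes did not move together. Snai2 differed by 1.24 (SE 0.54, limma adjusted p = 0.213), then by 1.71 (adjusted p = 0.0272). Zeb1 differed by 0.13 (SE 0.18), then by 0.11. Snai2 and Zeb1 were named after their values were seen. Zeb2 was at 0.25 in Nedd9-null replicate 1, within the Nedd9-WT range of 0.19 to 0.44, against -3.80 to -2.33 in the other Nedd9-null tumours.

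Marker lists of cell types were set beside the claudins. Over all 8 arrays, 0 genes of any marker list passed a limma adjusted p of 0.05. With Nedd9-null replicate 1 left out, 7 of 7 ciliated, 2 of 4 secretory and 3 of 8 epithelial markers rose, and 6 of 9 granulosa and steroidogenic and 4 of 4 Sertoli-type markers fell. Of all genes tested, 10.3% rose and 8.36% fell in that fit. In the lists of mesothelium, endothelium, leukocytes, fibroblasts, smooth muscle and red cells, 0 then rose and 1, of the fibroblast list, fell. Amhr2, shown above when Nedd9-null replicate 1 was set apart, is among the 6 granulosa and steroidogenic markers that fell. Cyp11a1, Fshr and Amh passed the background filter only through Nedd9-WT tumours (2, 1 and 1 of 4 Nedd9-null arrays above background). Dnah5, of the ciliated list, passed only through Nedd9-null tumours (1 of 4 Nedd9-WT arrays). Genes so filtered could hardly have been counted the other way, and these are named for that reason. The score of a list is the mean log2 deviation of its tested genes from their Nedd9-WT means. For the claudins and occludin it was 0.18 in Nedd9-null replicate 1, 2.33 to 2.60 in the other Nedd9-null tumours, while Nedd9-WT tumours scored -0.07 to 0.06. This score includes Cldn8 and Cldn2, which passed the background filter only through the Nedd9-null tumours. In Nedd9-null replicates 2 to 4 they deviated by 4.14 to 4.85 and by 4.31 to 5.11. The size of the score is therefore not fixed by these data. Ciliated oviduct cell markers, 7 of 7 with a positive difference, scored 1.71 to 5.90 in Nedd9-null and -0.90 to 1.44 in Nedd9-WT animals, and their summed level was 10.2 to 112 and 2.41 to 4.68 times the 75th percentile. Secretory oviduct cell markers, 3 of 4 positive, scored 0.72 to 4.26 and -1.32 to 1.18, with sums of 5.76 to 139 and 0.34 to 3.91. Epithelial markers, 8 of 8 positive, scored -0.92 to 2.14 and -0.69 to 0.47, with sums of 5.74 to 102 and 11.2 to 55.5. Granulosa and steroidogenic markers, 8 of 9 with a negative difference, scored -6.06 to -0.33 and -0.53 to 0.57, with sums of 17.5 to 156 and 128 to 219. Sertoli-type markers, 4 of 4 negative, scored -4.79 to 0.16 and -0.41 to 0.63, with sums of 1.33 to 18.01 and 12 to 27.99. In each of these 5 lists Nedd9-null replicate 1 was the Nedd9-null tumour nearest to the Nedd9-WT mean, and in the epithelial list it was the lowest of all 8.

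The ciliogenesis factor gene Foxj1 differed by 6.58 (SE 1.02, limma adjusted p = 0.0596), or 7.19 (adjusted p = 0.00332) with Nedd9-null replicate 1 left out. Cdh1, the gene of E-cadherin, differed by 0.98 (SE 1.29, limma adjusted p = 0.688), then by 1.505, with Nedd9-WT tumours from -5.70 to 0.11. The Muellerian duct factor gene Pax8 differed by 2.85 (SE 1.48, limma adjusted p = 0.281), then by 2.71, and the supporting cell factor gene Sox9 by -1.32 (SE 0.55, adjusted p = 0.194), then by -1.90 (adjusted p = 0.00193). The size for Pax8 rests largely on Nedd9-WT replicate 3 (-5.77), as the other Nedd9-WT tumours were at 0.13 to 1.49. Nedd9-null tumours were at 1.71 to 2.45, with Nedd9-null replicate 1 the highest. The granulosa factor gene Foxl2 went against its list with 0.25 (SE 0.18), then 0.19, and with -0.27 as the mean of its kept probes. Of the listed markers of these 5 cell types, all but Spag6 were tested; Spag6 was well above background on 2 arrays at most. The part of these cell types in the claudin differences was not tested.

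**Figure D5:**
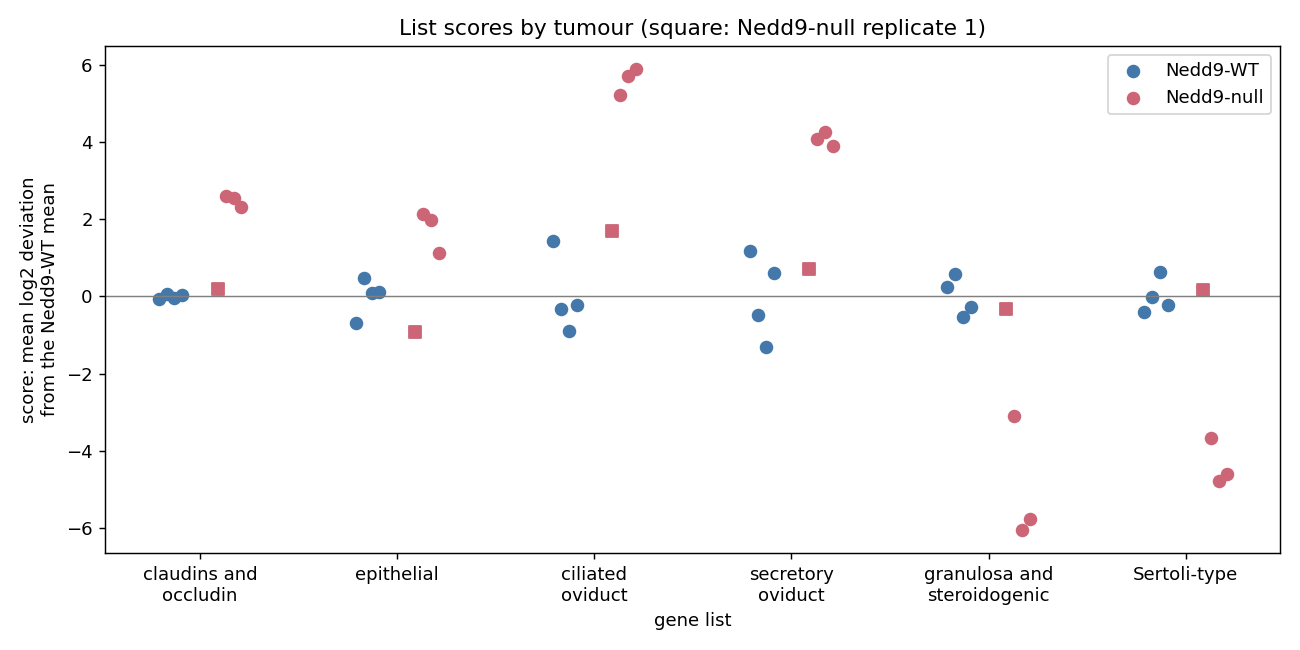
Score of each gene list (mean log2 deviation from the Nedd9-WT mean) in each tumour, with Nedd9-null replicate 1 as a square. The claudin and occludin scores of Nedd9-null replicates 2 to 4, from 2.33 to 2.60, stand apart from the Nedd9-WT tumours in the same 3 tumours in which the ciliated and secretory oviduct scores are high and the granulosa and Sertoli-type scores are low. The claudin and occludin score includes Cldn2 and Cldn8, so its size is not fixed by these data.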

How the data were processed

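Intensity values of 1 colour (Cy3) are in the deposited scanner files, made per the submitters' processing notes with Agilent Feature Extraction 9.5.3 and, per the file headers, background-subtracted and detrended within each array but not normalized between arrays. The deposited value table holds log2 values, normalized between arrays by the authors in a way not given in the sources used here (all columns share a median of 8.24), and served as an alternative. The outlier, saturation and background flags are other columns of the deposited files. Control spots (1377 of 44397) and outlier spots (194 to 292 per array) were left out, spots of a probe were averaged, and log2 processed signals were scaled to the 75th percentile (2418 to 3552 in signal); 73.0% to 84.6% of probes were well above background, and the number of arrays limits the precision. Probes above background on 3 of 4 arrays of a genotype were kept, and the brightest stood for a gene. A gene kept through 1 genotype alone can hardly be lower in that genotype, which bears on the counts of every list. Names were updated through RefSeq (GRCm38.p6): an accession named 26055 probes, a symbol 3195 and a synonym 930, while 9249 kept the name in the files.

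The test between genotypes was that of limma 3.58.1 under R 4.3.3 (lmFit, eBayes, 2-sided, Benjamini-Hochberg over 25536 genes, threshold 0.05). On simulated data for this comparison with 25536 genes, the share of truly changed genes recovered was 17.8% at a log2 change of 1, 59.9% at 2 and 83.9% at 4, and 6.53% of calls were false. The members and lists were chosen with earlier results of these data known. Named genes were the members, Nedd9, Amhr2, the 5 other claudins and up to 4 genes of each further pathway list with the smallest p, the first marker of 5 lists (the rule allowed 2 of every list), and the 2 genes nearest to Cldn3, Cldn4, Cldn7 and Ocln; exceptions are stated where they occur, and 1 gene that the rule names is not reported here. Alternatives were normexp background correction (offset 50), median and quantile scales, other filters and probe summaries, the value table, a replicate block, array weights, an intensity trend and leaving out each array.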

Additional observations from a re-analysis of the deposited data

Results flagged for a closer look

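Values of the 9 tested genes were checked for a tumour far from the other 3 of its genotype, 18 checks in all, of which chance gives about 1 in 20. In 2 checks a tumour stood far out. Cldn8 in Nedd9-null replicate 1 was at -9.22, at background, against -5.55 to -4.85 in the other Nedd9-null tumours. Cldn23 in Nedd9-WT replicate 2 was at -5.22, against -4.88 to -4.82 in the other Nedd9-WT tumours.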

How the results depend on the processing

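The count of genes past the threshold, 17 (15 higher, 2 lower), was 4 with the median scale (2 higher, 2 lower), 4 (3 higher, 1 lower) with quantile normalization, 7 with probes above background on all 8 arrays, 0 with the replicate block and 5984 with array weights, and ranged from 0 to 4771 when 1 array was left out (dropping Nedd9-null replicate 1 gave 4771 and replicate 4 gave 2, dropping Nedd9-WT replicate 1 gave 42, and any of the other 5 gave 0). Claudin and occludin genes past the threshold, 0 of 9, became 7 with array weights and 0 to 6 when 1 array was left out; the other tight junction genes, 0 of 63, became 25 and 0 to 23. In both, all left-out arrays except Nedd9-null replicate 1 gave 0. The median difference of the 9 genes, 1.79, ranged from 1.47 to 2.74 when 1 array was left out and from 1.19 to 2.53 otherwise. Directions of the 8 claudins held under every alternative run. Without 1 array, Ocln ranged from -1.46 to 0.10 and Nr4a1 from -1.20 to 0.034, both positive only without Nedd9-WT replicate 3. Epcam ranged from -0.23 to 1.29 (-0.0085 and -0.23 without Nedd9-null replicates 2 and 3) and Tjp1 from -0.15 to 0.022 (the latter without Nedd9-WT replicate 2); Foxl2 was -0.27 with the mean of kept probes. Tjp1 was 0.021 with normexp, 0.0058 with quantile normalization and 0.12 with the value table. The cause was not tested. The median scale moved the median of all genes from 0.03 to -0.16.

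The replicate numbers share no source in the labels, and deviations of same-numbered tumours correlated at -0.23 to -0.04; with the replicate block 0 genes passed, and Nedd9 had an adjusted p of 0.217. Signal over background limits Cldn2, Cldn6, Cldn8 and the second Cldn4 probe, which were at or near background in Nedd9-WT tumours, and Cldn13, Cldn22 and Ildr1, at background in 2 of these. Cldn1 is limited too, as it was not well above background in Nedd9-WT replicate 3 and Nedd9-null replicate 1. The same holds for Cyp11a1, Hsd3b1, Fshr and Amh in some Nedd9-null tumours and for Dnah5 in Nedd9-WT tumours.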
